A study of Mus musculus with 4 samples.

Results

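The constitutive proteasome subunits and regulators are the genes whose array name begins with Psm, one of the letters a to g and a number, without the 3 inducible beta subunits Psmb8, Psmb9 and Psmb10. This rule found 46 of 37074 gene names on the array, and it used no measured value. Of the 46 genes, 45 had a probe well above background on at least 1 array and 44 on all 4 arrays. Psmb11, the beta subunit of the thymus, was not well above background on any array and has no value below. Psma8, an alpha subunit of the testis, was well above background on 3 arrays. Psmc3ip matched the rule by its name alone: it was named for binding a proteasome ATPase and is known as a cofactor of recombination in meiosis.

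Kidney RNA of outbred ICR mice was hybridised to 4 single-colour expression arrays. The groups were vancomycin, a glycopeptide antibiotic with known kidney toxicity, injected at zeitgeber time 2 (ZT2), saline injected at ZT2, vancomycin injected at ZT14 and saline injected at ZT14, where zeitgeber time counts hours from lights on. Every kidney was collected 1 day after its mouse was injected. Each group had 1 array, and the labels leave unsaid how many mice gave a sample. Differences within a time therefore had no replicate check and no test. The arrays of each injection time shared a slide, which differed between ZT14 and ZT2, and the vancomycin arrays had another position on their slides than the saline arrays. Time and slide, and treatment and position, therefore cannot be told apart.

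The proteasome is the protease that degrades proteins tagged with ubiquitin. Its core is a barrel of alpha and beta rings, with the active sites on the inner face of 3 beta subunits. A regulatory cap binds ubiquitin, removes it, and feeds the unfolded protein into the barrel by means of a ring of ATPases. Other activators, an inhibitor and a set of assembly chaperones complete the system. Its subunit genes are known to be raised together by the transcription factor Nfe2l1 when proteasome activity falls short, and interferon exchanges the 3 active beta subunits for inducible ones.

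The probes of Psmb5 and of its inducible counterpart Psmb8 are shown because the set is defined by keeping these 2 kinds of beta subunit apart. Both come from the deposited array files, in mm9 coordinates: Psmb5 at chr14:55233161-55233220 on the minus strand and Psmb8 at chr17:34337771-34337830 on the plus strand. Each probe maps to 1 unbroken stretch, and exon annotation of that build was not used here. Capitals mark bases that are identical in the best overlap without gaps, which were 31 of 50 bases, or 62.0%.
Psmb5: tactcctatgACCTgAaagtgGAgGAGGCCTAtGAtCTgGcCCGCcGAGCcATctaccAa
Psmb8: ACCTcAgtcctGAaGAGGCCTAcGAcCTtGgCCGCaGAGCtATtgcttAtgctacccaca
The 2 other such pairs overlapped less, with 9 of 20 identical bases for Psmb6 and Psmb9 and 11 of 23 for Psmb7 and Psmb10.

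Promoters were searched for the letters TGACNNNGC, the core of the antioxidant response element to which Nfe2l1 and Nfe2l2 are known to bind, on both strands of the 300 bases from 250 before to 50 after the start. RefSeq promoter sequences of GRCm38.p6 were matched for 38 of the 46 genes. The core was present in 6 of these 38 genes (15.8%), namely Psmb5, Psmb6, Psmc6, Psmd9, Psmd12 and Psme4, against 14% of 27025 genes with a promoter sequence. The 250 bases before the start are shown for 3 of them, with the core in capitals: Psmb5 at chr14:54617996-54618245 on the minus strand, Psmb6 at chr11:70525107-70525356 on the plus strand and Psmd9 at chr5:123227940-123228189 on the plus strand. Psmb5 and Psmb6 encode active sites, and Psmd9 is one of the genes with the largest differences below.
Psmb5: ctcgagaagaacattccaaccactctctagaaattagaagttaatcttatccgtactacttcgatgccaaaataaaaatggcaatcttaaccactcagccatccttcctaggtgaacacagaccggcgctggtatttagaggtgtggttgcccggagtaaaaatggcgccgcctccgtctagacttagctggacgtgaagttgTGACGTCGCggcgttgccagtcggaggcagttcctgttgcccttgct
Psmb6: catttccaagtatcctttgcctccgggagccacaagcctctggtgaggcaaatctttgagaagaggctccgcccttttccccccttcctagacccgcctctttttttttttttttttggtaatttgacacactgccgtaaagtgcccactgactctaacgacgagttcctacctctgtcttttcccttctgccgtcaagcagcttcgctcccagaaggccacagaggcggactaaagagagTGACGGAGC
Psmd9: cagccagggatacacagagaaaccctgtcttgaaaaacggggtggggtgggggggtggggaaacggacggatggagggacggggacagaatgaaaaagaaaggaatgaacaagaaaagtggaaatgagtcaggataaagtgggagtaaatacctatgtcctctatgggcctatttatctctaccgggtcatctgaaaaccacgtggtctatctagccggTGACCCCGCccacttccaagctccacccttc
The first base of the core was at position -47 from the start in Psmb5, -9 in Psmb6 and -31 in Psmd9. The CCAAT box, searched as CCAAT, was in 14 of the 38 genes (36.8%), against 41.1% of all genes. The GC box, searched as GGGCGG, was in 21 of them (55.3%), against 38.2%. Paired units of the heat shock element, searched as GAANNTTC, were in 2 of them (5.26%), Psmb5 and Psmf1, against 9.04%. Both strands were searched for each, and overlap between motifs was not excluded. These matches describe letters in a window and not binding.

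Levels below are log2 processed signals minus the 75th percentile of the array, so 0 is the signal of that percentile, and differences are vancomycin minus saline on this log2 scale. Levels of different genes come from different probes and are not set against each other. Most proteasome genes differed by less between vancomycin and saline than the typical gene on the array. Their median difference was -0.02 at ZT2 and -0.02 at ZT14, against 0.00 at both times over all 24637 genes measured. The median size of the difference, sign ignored, was 0.11 at ZT2 and 0.10 at ZT14, against 0.23 and 0.20 over all genes. In whole kidney RNA, fewer cells of a type and less RNA per cell cannot be told apart.

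A log2 difference of 0.32 or more in either direction was used as a rule of size in place of a test. At ZT2 it was passed by 5 of the 45 genes (11.1%), against 38% of all genes. Psmc3ip and Psmg4 were the 2 higher ones (background 17.8%), and Psma8, Psmg2 and Psmd9 the 3 lower ones (background 20.2%). At ZT14 it was passed by 2 of the 45 genes (4.44%), Psma8 and Psmd3, both lower, against 32.8% of all genes in either direction and 18.1% lower. No proteasome gene was higher by that much at ZT14, where 14.8% of all genes were. A stricter size of 2-fold was passed at ZT2 by Psmc3ip, higher (background 3.7%), and Psma8, lower (background 5.98%), and at ZT14 by Psma8, lower (background 4.49%), with 0 higher (background 2.31%). Psma8 was the 1 gene past 0.32 the same way at both times, against 7.61% of all genes that were lower by that much at both times and 5.05% that were higher.

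Bright probes vary less than dim ones, so the count was repeated among genes whose mean signal was over the 75th percentile. Of the 43 proteasome genes above it, 39 (90.7%) stayed under 0.32 at both times, against 72.2% of all 9957 genes above it. Brightness was not matched above that percentile, so the part of brightness in this gap was not tested. Without regard to brightness the count was 39 of 45 (86.7%), against 48.5%. Among the bright genes, 3 of 43 (6.98%) passed it at ZT2, against 18.9%, and 1 of 43 (2.33%) at ZT14, against 15.5%. Replicate spots of 1 probe on 1 array had an SD of 0.042 to 0.049. From this spot spread alone, the SD of a difference between 2 arrays would be 0.063. That value leaves out variation from labelling, slide, position and scaling.

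By sign alone, 10 of the 45 genes were higher with vancomycin at both times (background 28.7%), 15 were lower at both times (background 28.1%), and 20 had opposite signs. These counts rest on the brightest probe of each gene, and in 15 of 27 genes with 2 or more usable probes the sign differed between probes at 1 or both times. Across treatment and injection time in 1 additive limma fit, 0 of 24637 genes (0%) passed an adjusted p of 0.05, the lowest of them being 0.52. Without adjustment, 2107 genes (8.55%) had a p under 0.05, of which 1, Psma8, was a proteasome gene. That fit had 1 residual degree of freedom, which holds the mismatch between the 2 times and not a spread between animals. The spread used for each gene mixed this mismatch with a prior pooled over all genes, of 1.86 degrees of freedom. An SE or p from the fit therefore does not measure the mismatch of its gene alone.

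**Figure D1:**
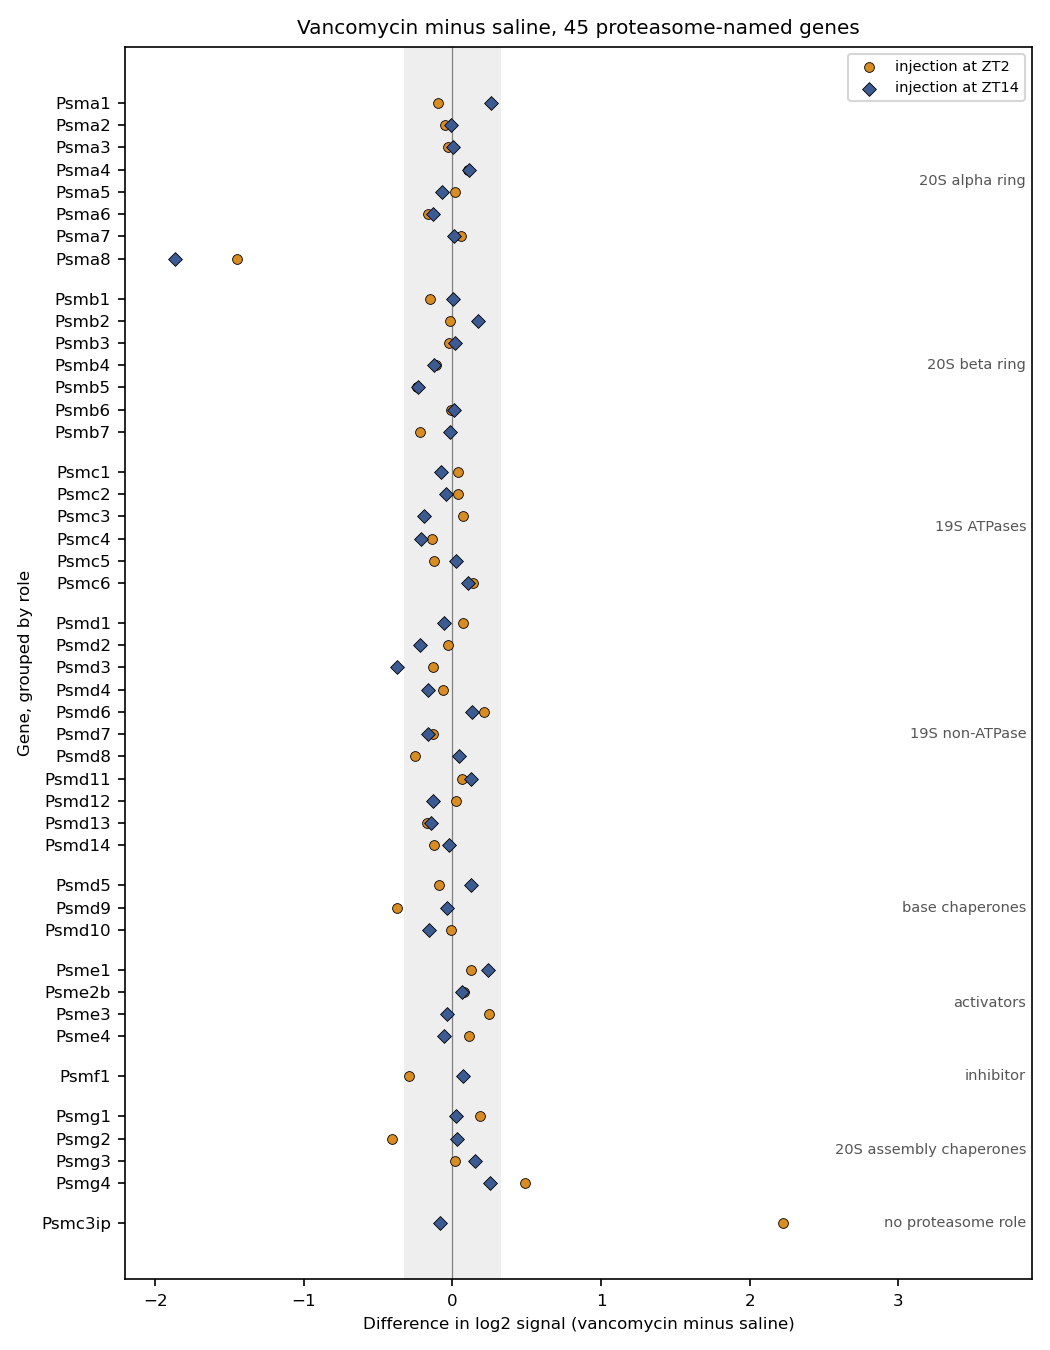
Difference between vancomycin and saline for each of the 45 measured genes (x axis, log2 signal), grouped by role down the page; circles are injection at ZT2, diamonds at ZT14, each the difference of 2 arrays, and the grey band marks sizes under 0.32. Psma8 lies left of the band at both times, Psmc3ip lies far right at ZT2 and inside the band at ZT14, and 39 of the 45 genes keep both points inside the band.

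The alpha subunits form the outer rings, which gate entry to the core. The 7 alpha subunits other than Psma8 differed by -0.16 to 0.10 at ZT2 and by -0.13 to 0.26 at ZT14. With Psma8 the median of the class was -0.04 at ZT2 and -0.00 at ZT14. At both times 2 of 8 genes were higher (background 28.7%) and 3 lower (background 28.1%). Psma4 had the highest mean difference. Its level was 5.40 with vancomycin, against 5.30 with saline at ZT2, and 5.27 with vancomycin, against 5.16 with saline at ZT14, which gave differences of 0.10 and 0.11. The largest single value of this class above 0 was that of Psma1 at ZT14, where the level was 3.52 with vancomycin and 3.26 with saline. At ZT2 the order was the other way for Psma1, with 3.55 with vancomycin and 3.65 with saline.

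Psma8 takes the place of an ordinary alpha subunit in the proteasome of spermatogenic cells and was dim in these kidneys. Its level was -5.25 with vancomycin, against -3.80 with saline at ZT2, a difference of -1.45 or 2.73-fold lower. At ZT14 the vancomycin array was not well above background, with a measured level of -5.68, against -3.82 with saline. Set against the dimmest probe that was well above background there, Psma8 was at least 3.41-fold lower with vancomycin at ZT14. Both vancomycin arrays were thus below both saline arrays. The limma fit, which used the dim value as measured, gave a log2 change of -1.66 (SE 0.18), an unadjusted p of 0.0034 and an adjusted p of 0.52. The second probe of Psma8 was not well above background on any array, and the size depended on the treatment of low signals: with normexp background correction the differences were -0.42 at ZT2 and -0.53 at ZT14.

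The beta subunits hold the active sites. None of the 7 measured genes passed 0.32, and their median difference was -0.11 at ZT2 and 0.01 at ZT14. At both times 3 were lower (background 28.1%) and 0 higher (background 28.7%). Psmb5, the chymotrypsin-like site, had the lowest mean difference of the class. Its level was 4.46 with vancomycin and 4.69 with saline at ZT2, and 4.56 with vancomycin and 4.79 with saline at ZT14. The differences of -0.24 and -0.23 had about the same size at both times, and both vancomycin arrays were below both saline arrays (adjusted p = 0.72, limma). Psmb2, a structural beta subunit, had the highest mean, with levels of 0.30 with vancomycin and 0.32 with saline at ZT2, and 0.51 with vancomycin and 0.34 with saline at ZT14.

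The other 2 active sites did not share the pattern of Psmb5 at both times. Psmb6, the caspase-like site, differed by -0.01 at ZT2, with 5.62 with vancomycin and 5.63 with saline, and by 0.01 at ZT14, with 5.89 with vancomycin and 5.88 with saline. Psmb7, the trypsin-like site, was at 3.36 with vancomycin and 3.57 with saline at ZT2, and at 3.64 with vancomycin and 3.65 with saline at ZT14. Its difference was -0.22 at ZT2 and -0.02 at ZT14.

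The inducible counterparts, which interferon is known to raise, were lower with vancomycin on 5 of 6 comparisons. Psmb9 was at -0.79 with vancomycin and -0.43 with saline at ZT2, and at -0.64 with vancomycin and -0.08 with saline at ZT14, or 1.28-fold and 1.48-fold lower. Psmb8 differed by -0.29 at ZT2 and -0.32 at ZT14. Psmb10 differed by -0.27 at ZT2 and by 0.00 at ZT14, where the level was 2.31 with vancomycin and 2.30 with saline. At both times, 6 of 7 measured lymphocyte markers, 6 of 7 macrophage markers and 6 of 8 interferon response genes were lower with vancomycin (background 28.1%). The interferon response genes summed, on a linear scale relative to the 75th percentile, to 5.53 with vancomycin and 7.38 with saline at ZT2, and to 7.32 with vancomycin and 9.53 with saline at ZT14. The lymphocyte markers summed to 0.807 with vancomycin and 1.36 with saline at ZT2, and to 1.28 with vancomycin and 1.79 with saline at ZT14. The macrophage markers summed to 19.2 with vancomycin and 19.5 with saline at ZT2, and to 17.1 with vancomycin and 21.4 with saline at ZT14. Csf1r was the largest term of the macrophage sums and differed by 0.43 at ZT2 and -0.20 at ZT14. The other 6 macrophage markers were lower by 0.32 or more at both times (background 7.61%). The part of these cells and genes in the inducible subunit values was not tested. Whether inducible and constitutive subunits differed in their response was not tested either.

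**Figure D2:**
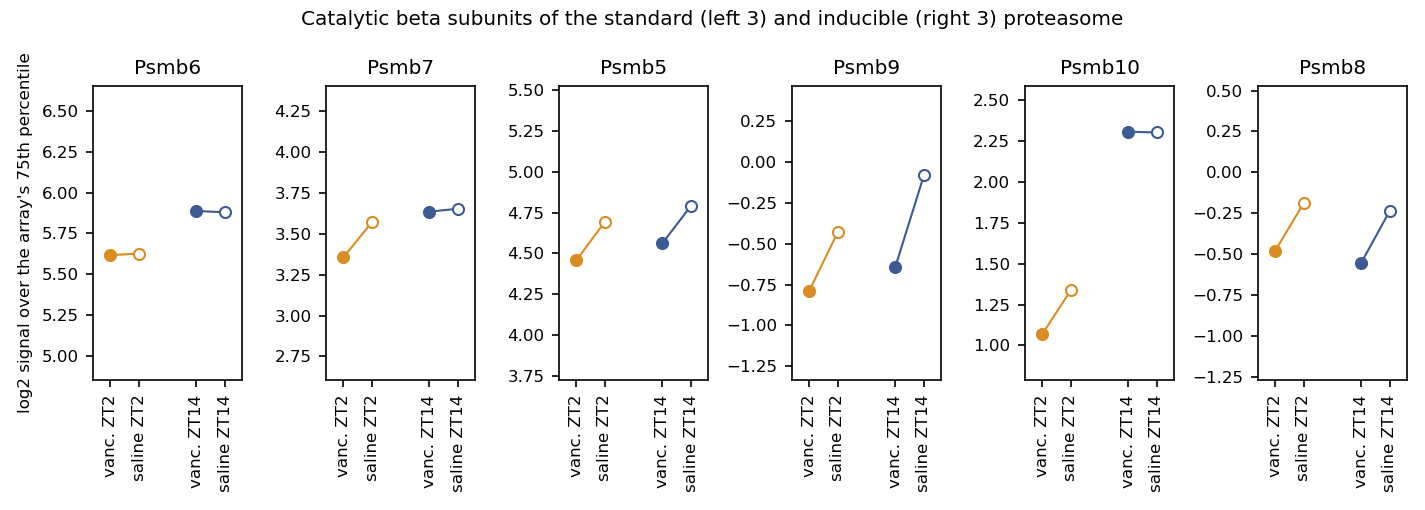
Level of the 6 active-site beta subunits on each array (y axis, log2 signal over the array's 75th percentile, each panel spanning the same range around its own values), with filled points for vancomycin left of open points for saline, and lines joining the 2 arrays of an injection time. Psmb5, Psmb8 and Psmb9 lie lower with vancomycin at both times, Psmb7 differs by -0.22 at ZT2 and -0.02 at ZT14, Psmb10 by -0.27 and 0.00, and Psmb6 by no more than 0.01.

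The 6 ATPases form the ring of the cap that unfolds and threads the substrate. Their median difference was 0.04 at ZT2 and -0.06 at ZT14, within a range of -0.14 to 0.14 and of -0.21 to 0.10. Psmc6 was highest by its mean. Its level was 4.02 with vancomycin and 3.88 with saline at ZT2, and 3.92 with vancomycin and 3.82 with saline at ZT14, a difference of 0.14 and 0.10. A dimmer Psmc6 probe of another transcript model gave -0.05 at ZT2 and -0.00 at ZT14, so it did not repeat the higher values. Psmc4 was lowest, at 3.45 with vancomycin and 3.59 with saline at ZT2, and at 3.68 with vancomycin and 3.89 with saline at ZT14. The second Psmc4 probe gave -0.12 at ZT2 and -0.31 at ZT14, the same signs as the differences of -0.14 and -0.21 of the first. The other 4 ATPases had opposite signs at the 2 times.

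The 11 non-ATPase subunits of the cap include the scaffold, the ubiquitin receptors and the enzyme that cuts ubiquitin off. Of these, 6 were lower (background 28.1%) and 2 higher (background 28.7%) with vancomycin at both times. Their median differences were -0.06 at ZT2 and -0.13 at ZT14. Psmd3, a structural subunit of the lid of the cap, was lowest by its mean. The level of Psmd3 was 5.64 with vancomycin and 5.78 with saline at ZT2, and 5.46 with vancomycin and 5.83 with saline at ZT14, where it was 1.29-fold lower. A dimmer second probe of the same transcript read -0.39 with vancomycin and 0.12 with saline at ZT2, and -0.27 with vancomycin and 0.13 with saline at ZT14. Both probes put both vancomycin arrays below both saline arrays, but they differed in size at ZT2, at -0.13 for the first and -0.50 for the second.

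Psmd6, another lid subunit, was highest by its mean, with 4.28 with vancomycin and 4.07 with saline at ZT2 and 3.94 with vancomycin and 3.80 with saline at ZT14. The 3 probes of Psmd6 were all higher with vancomycin at both times, by 0.00 to 0.21 at ZT2 and by 0.13 to 0.26 at ZT14. Psmd14, which encodes the deubiquitinase of the lid, differed by -0.12 at ZT2 and -0.03 at ZT14. Psmd2, a scaffold subunit of the base, differed by -0.03 and -0.22, and its second probe by -0.16 and -0.35.

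Psmd4, an ubiquitin receptor, was the 1 gene whose probes disagreed by 0.32 or more in each direction, at ZT14. Its brightest probe was at 4.64 with vancomycin and 4.70 with saline at ZT2, and at 4.85 with vancomycin and 5.02 with saline at ZT14, differences of -0.06 and -0.17. A second curated transcript probe gave -0.18 at ZT2 and -0.34 at ZT14. The probe designed to the Ensembl transcript ENSMUST00000147960 gave 0.33 at ZT2 and 0.41 at ZT14. Psmd7, a partner of the deubiquitinase in the lid, was split likewise, with -0.13 and -0.16 for the curated transcript and 0.41 and 0.37 for the probe of the cDNA AK158379. Which transcript forms these probes read was not tested.

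In all, 12 proteasome genes had both a curated RefSeq probe and a probe of another transcript model. The other-transcript probe was the higher of the pair at both times for 5 of the 12 genes (41.7%), against 41% of 3033 genes on the array with both kinds. Over those 3033 genes the median of the other-transcript difference less the curated one was 0.09 at ZT2 and 0.10 at ZT14. Over the 12 proteasome genes it was -0.04 at ZT2 and 0.19 at ZT14. The split of Psmd4 and Psmd7 had the direction of the array medians but was larger, and its cause was not tested.

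The base chaperones Psmd5, Psmd9 and Psmd10 help the ATPase ring to assemble and are not part of the finished proteasome. Psmd5 was at 0.92 with vancomycin and 1.01 with saline at ZT2, and at 1.23 with vancomycin and 1.11 with saline at ZT14, so its sign changed between times. Psmd9 was at -0.53 with vancomycin and -0.15 with saline at ZT2, 1.30-fold lower, and at 0.31 with vancomycin and 0.35 with saline at ZT14. Psmd10, also known as gankyrin, differed by -0.01 at ZT2 and -0.16 at ZT14. None of the 3 was past 0.32 at ZT14.

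The activators bind the ends of the core in place of the cap. Psme1, a subunit of the activator that interferon is known to raise, was at 3.57 with vancomycin and 3.45 with saline at ZT2, and at 3.48 with vancomycin and 3.24 with saline at ZT14. Its differences of 0.12 and 0.24 were above 0, in contrast to the inducible beta subunits Psmb8 and Psmb9. Psme2b, a copy of the gene for its partner subunit whose probes may also read that gene, differed by 0.08 and 0.06. Psme3, the nuclear activator, differed by 0.25 at ZT2 and -0.04 at ZT14.

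Psme4, an activator known for degrading histones, was at 4.28 with vancomycin and 4.17 with saline at ZT2, and at 3.97 with vancomycin and 4.02 with saline at ZT14. Its 4 probes did not give 1 answer at ZT14: the 2 curated ones gave -0.06 and -0.15, and those of the cDNAs AK164827 and AK140717 gave 1.63 and 0.56. The mean over probes at ZT14 was 0.50. Psmf1, an inhibitor of the core, was at 0.30 with vancomycin and 0.59 with saline at ZT2, and at 0.64 with vancomycin and 0.57 with saline at ZT14, differences of -0.29 and 0.07. A dimmer second probe of the same Psmf1 transcript gave -0.04 at ZT2 and 0.20 at ZT14.

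The 4 assembly chaperones Psmg1 to Psmg4 build the alpha ring, and 3 of them were higher with vancomycin at both times (background 28.7%). Psmg4 was highest, with a level of 0.50 with vancomycin and 0.01 with saline at ZT2, 1.4-fold higher, and of 0.89 with vancomycin and 0.64 with saline at ZT14. The ZT2 saline array was the lowest of the 4 for Psmg4. Psmg1 differed by 0.18 at ZT2 and 0.03 at ZT14, and Psmg3 by 0.02 and 0.15. Psmg2 was the exception, at 1.04 with vancomycin and 1.45 with saline at ZT2 and at 2.19 with vancomycin and 2.16 with saline at ZT14. Its other 2 probes did not repeat the ZT2 difference of -0.40, with -0.10 and 0.11.

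Psmc3ip, the recombination cofactor, had the largest difference of the set. Its level was 1.14 with vancomycin and -1.08 with saline at ZT2, 4.67-fold higher, and 1.82 with vancomycin and 1.90 with saline at ZT14. The ZT2 saline array was thus the low one, and the other 3 arrays lay between 1.14 and 1.90. A second probe gave -0.73 with vancomycin and -3.03 with saline at ZT2, and -0.40 with vancomycin and -0.43 with saline at ZT14, differences of 2.30 and 0.03.  A vancomycin difference of opposite sign at the 2 times, with a gap of 2-fold or more between them, was found for 8.3% of all genes. The second, dimmer probe of Psmc3ip did not have opposite signs. It lies on the minus strand at mm9 chr11:100954219-100954278 and is shown because the ZT2 saline array was the lowest for both probes.
Psmc3ip: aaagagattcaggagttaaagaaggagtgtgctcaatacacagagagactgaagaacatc

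Other genes of the ubiquitin and proteasome system were read from lists by role. The 9 measured partners, which dock on or assemble the proteasome, showed median differences of -0.01 at ZT2 and -0.03 at ZT14, and none passed 0.32 in size. They included Adrm1, a ubiquitin receptor of the cap, with -0.07 and -0.03, and Pomp, the maturation factor of the core, with -0.03 and -0.17. The 6 genes of ubiquitin supply and activation had medians of 0.01 and 0.02 and a range of -0.16 to 0.11 at ZT2 and of -0.07 to 0.07 at ZT14. Ubb, a polyubiquitin gene, differed by 0.06 at ZT2 and by 0.01 at ZT14.

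The 14 measured shuttles and unfolding factors had medians of -0.00 and -0.05, with 0 past 0.32 at both times. Nploc4, a cofactor of the unfolding enzyme Vcp, was lower by 1.27-fold at ZT2, and Sqstm1, a receptor that links ubiquitin to autophagy, by 1.28-fold at ZT14. Of 9 ubiquitin ligases, Fbxo32, known from muscle wasting, was the 1 gene past 0.32 the same way at both times, lower (background 7.61%). It was at -3.90 with vancomycin and -3.29 with saline at ZT2, and at -3.56 with vancomycin and -3.12 with saline at ZT14.

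Among 11 genes that control proteasome transcription the median difference was 0.18 at ZT2 and 0.16 at ZT14. At both times 6 were higher (background 28.7%) and 0 lower (background 28.1%). Bach1, a repressor at antioxidant response elements, was the 1 gene past 0.32 the same way on both comparisons, higher (background 5.05%). The level of Bach1 was 0.34 with vancomycin and -0.01 with saline at ZT2, and 0.63 with vancomycin and 0.07 with saline at ZT14. Nfe2l1 differed by -0.08 at ZT2 and 0.21 at ZT14, and Nfe2l2 by 0.50 and 0.11. Maf differed by 0.64 at ZT2 and by -0.15 at ZT14. At ZT2, 3 of the 11 genes were higher by 0.32 or more (background 17.8%). Foxo4 was the 1 gene lower by that much there (background 20.2%), and neither ZT2 array was well above background for it. The protease Ddi2 and the glycosidase Ngly1, which process the Nfe2l1 protein, differed by 0.08 and 0.18 at ZT2 and by 0.49 and 0.30 at ZT14. Foxo4 was well above background on 1 array.

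The 7 heat shock genes, which answer to misfolded protein by another factor, were set beside the proteasome because both serve protein quality. Their medians were 0.43 at ZT2 and 0.69 at ZT14, and 4 of the 7 were past 0.32 above 0 on each of the 2 comparisons (background 5.05%). Hspa1a, an inducible chaperone, was at 4.79 with vancomycin and 2.63 with saline at ZT2, and at 3.31 with vancomycin and 1.20 with saline at ZT14, which was 4.45-fold and 4.31-fold higher. Hspa1b was 3.21-fold and 3.26-fold higher, Dnajb1 1.68-fold and 1.64-fold, and Hsph1 1.35-fold and 1.62-fold. Hspa1a and Hspa1b are near-identical copies whose probes may share signal. On the brightest probe of each gene, no proteasome gene other than Psmc3ip was higher by as much as Dnajb1 at either time. The dimmer Psme4 probe of the cDNA AK164827 gave 1.63 at ZT14, where Dnajb1 differed by 0.71.

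**Figure D3:**
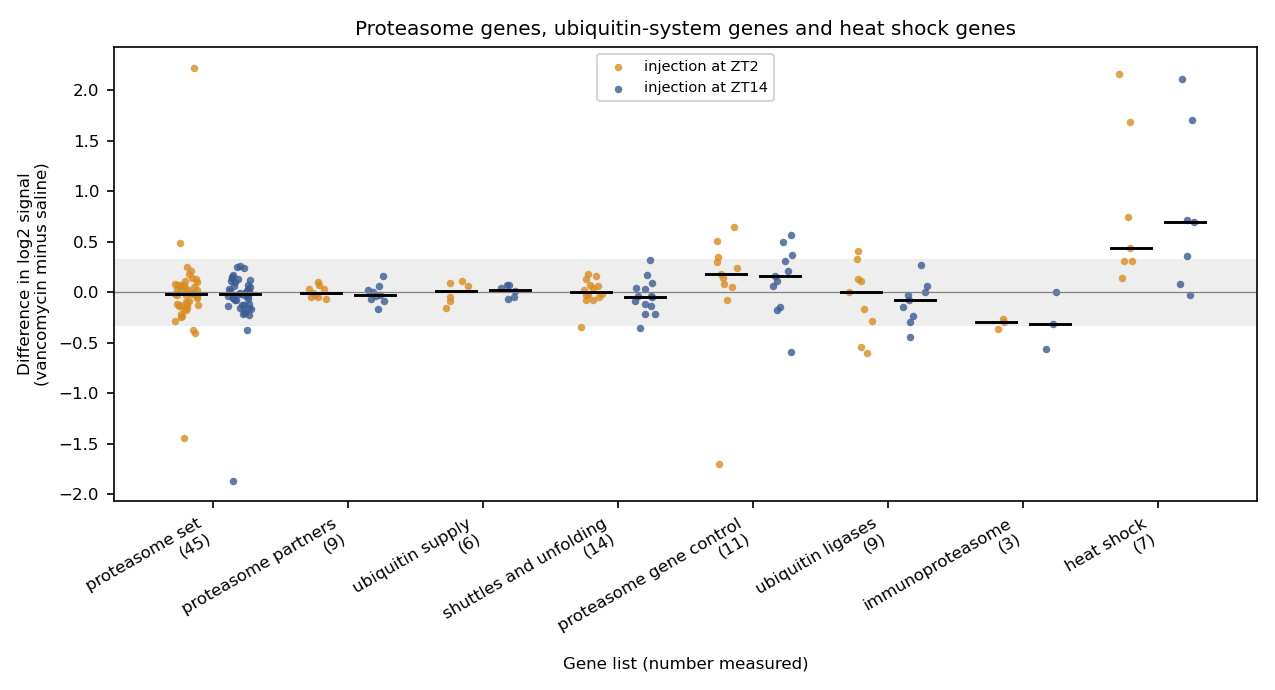
Difference between vancomycin and saline (y axis, log2 signal) for each gene of the proteasome set and of 7 related lists, with the number of measured genes in brackets; left points are injection at ZT2, right points at ZT14, black bars are medians and the grey band marks sizes under 0.32. The proteasome median is -0.02 at both times, and the heat shock medians are 0.43 and 0.69.

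The comparison of ZT14 with ZT2 is also one of slides. On this comparison the proteasome genes had a median difference, ZT14 minus ZT2, of -0.04 with vancomycin and -0.02 with saline, against 0.05 and 0.06 over all genes. With vancomycin, 15 of the 45 genes (33.3%) differed by 0.32 or more, 8 higher and 7 lower at ZT14, against 57.5% of all genes, 32.9% of them higher and 24.6% lower. With saline it was 12 of 45 (26.7%), 9 higher and 3 lower, against 55.3% of all genes, with 32.1% higher and 23.2% lower. The median size of the difference was 0.22 with vancomycin and 0.21 with saline, against 0.39 and 0.37 over all genes. The differences between times were thus larger than those between treatments, in the set and on the whole array.

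With both treatments, 6 genes were higher by 0.32 or more at ZT14 (background 21.9%) and 2 were lower (background 13%). The 6 were Psmb4, Psmc5, Psmd9, Psmg2, Psmg4 and Psmc3ip. The level of Psmg2 was 2.19 at ZT14 and 1.04 at ZT2 with vancomycin, a difference of 1.15, and the saline arrays gave 0.71. Its other 2 probes gave 0.19 and -0.62 with vancomycin and 0.21 and -0.63 with saline, so 1 of the 3 probes went the other way. Psmd9 differed by 0.84 with vancomycin and 0.50 with saline, Psmc5 by 0.49 and 0.34, and Psmb4 by 0.38 and 0.39. A dimmer second probe of Psmb4 gave 0.13 with vancomycin and -0.15 with saline. The 2 lower genes were Psmd2, with -0.80 and -0.62, and Psmb1, with -0.34 and -0.50. The level of Psmd2 was 3.95 at ZT14 and 4.76 at ZT2 with vancomycin, and 4.17 at ZT14 and 4.79 at ZT2 with saline, so both ZT14 arrays were below both ZT2 arrays on this probe. The dimmer second probe of the same Psmd2 transcript gave the opposite sign, 0.17 with vancomycin and 0.36 with saline. Of 27 proteasome genes with 2 or more probes well above background on all 4 arrays, 18 had probes that differed in the sign of ZT14 minus ZT2 with at least 1 treatment.

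By sign, and on the brightest probe of each gene, subunits of the same complex differed in opposite directions between the slides. With both treatments, 7 of 8 alpha subunits were lower at ZT14 (background 33.1%), 5 of 7 beta subunits and 5 of 6 ATPases were higher (background 40.7%), and 6 of 11 non-ATPase subunits were lower. Other probes did not bear out the alpha count: Psma3, Psma4 and Psma6 each had a curated probe that was higher at ZT14 with both treatments. Psma8 counted as lower with -0.02 with saline and a ZT14 vancomycin array not well above background. Part of these counts depended on the scaling: 2 beta subunits were higher with centring on the median and 3 with normexp, and 3 ATPases were higher with quantile normalization, cyclic loess, the authors' table or normexp. The alpha count ranged from 5 to 7 and the non-ATPase count from 6 to 8 over the alternatives.

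**Figure D4:**
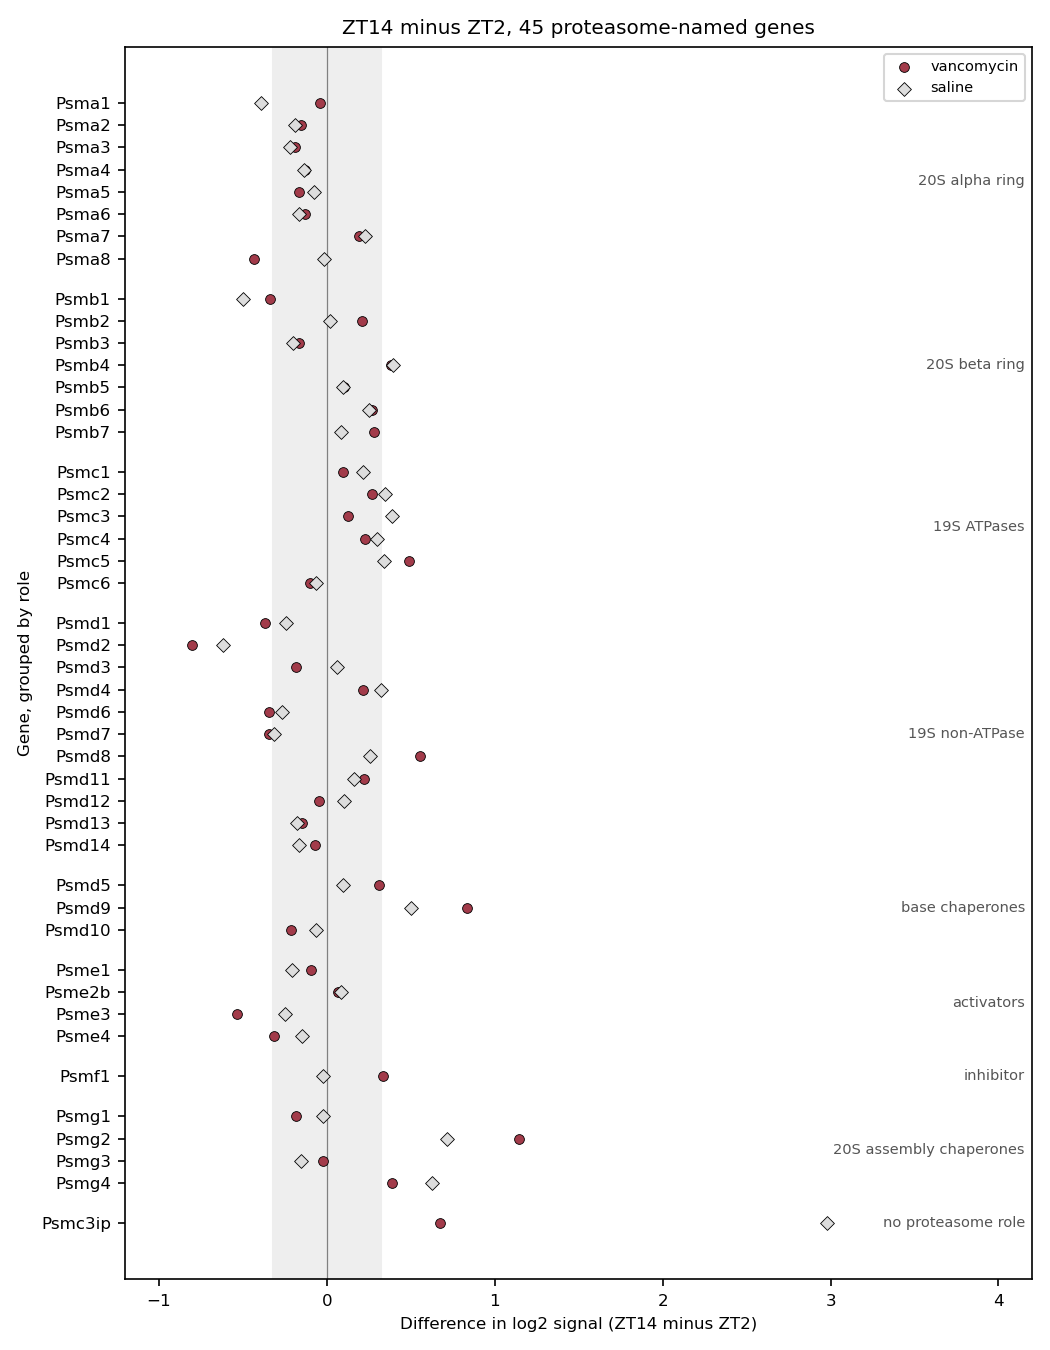
Difference between ZT14 and ZT2 for each of the 45 measured genes (x axis, log2 signal), grouped by role down the page; circles are vancomycin arrays, diamonds saline arrays, and the grey band marks sizes under 0.32. Psmd2 and Psmb1 lie left of the band with both treatments, Psmg2, Psmg4, Psmd9, Psmb4, Psmc5 and Psmc3ip right of it, and Psmc3ip with saline is the farthest point at 2.98.

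The samples were checked against their tissue and for RNA of other tissues. All 8 kidney tubule markers and all 3 podocyte markers were well above background on all 4 arrays. The summed linear signal of the 9 adrenal markers measured, of 10 listed, was 6.49 with vancomycin and 0.676 with saline at ZT2, and 1.32 with vancomycin and 0.725 with saline at ZT14, in units of the array's 75th percentile. All 9 were well above background on each vancomycin array and 5 on each saline array. The adrenal steroid enzyme Cyp11b1 was not well above background on either saline array. Fat cell markers summed to 15.04 with vancomycin and 25.9 with saline at ZT2, and to 10.5 with vancomycin and 8.98 with saline at ZT14. Fabp4 was the largest term at ZT2, at a log2 level of 3.54 with vancomycin and 4.31 with saline. Vancomycin minus saline at ZT2, Fabp4 differed by -0.77, Adipoq by -1.64, Cidec by -1.74 and Plin1 by -1.23. Ucp1, Cidea and Lep went the other way there, with differences of 4.01, 1.58 and 0.23. The ZT2 saline signal of Ucp1 was not well above background. The ZT14 sums were mostly Fabp4, at a log2 level of 3.32 with vancomycin and 3.08 with saline. The other fat markers were at -1.44 or lower at ZT14. With both treatments, 6 of the 7 fat markers were lower at ZT14 than at ZT2 and 1 was higher. ZT14 minus ZT2, Adipoq differed by -5.01 with vancomycin and -6.47 with saline, Plin1 by -3.86 and -4.01, and Cidec by -3.98 and -5.17. The ZT14 signals of Adipoq and Plin1 were close to background with both treatments. Erythroid markers summed to 11.2 with vancomycin and 33.9 with saline at ZT2, and to 42.9 with vancomycin and 34.7 with saline at ZT14. The part of these other tissues in the proteasome values was not tested.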

How the data were processed

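Total RNA was amplified and labelled with Cy3, 1 array per group, per the labels' protocols. The authors deposited scanner files whose processed signal is an intensity corrected for background and spatial trends, without normalization between arrays, per the file headers. Feature Extraction was version 10.7.1.1 per the file headers and 9.5.1.1 per the submitters' processing notes. Probe coordinates are in mm9 per the file headers. The authors' table of intensity by probe served as an alternative only. Log2 values were computed here from the deposited intensities and centred on each array's 75th percentile. Arrays held 59305 spots, 60.6% to 64.7% of them well above background and 0 saturated, and array number limits the precision.

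Replicate spots were averaged. Probes with at least 50% of spots well above background on at least 1 array were kept, and the brightest represented a gene. Of 90 proteasome probes, 83 were above background on all 4 arrays and 6 on none, and 27 genes had 2 or more of the 83. The additive fit used limma 3.58.1 in R 4.3.3, with Benjamini-Hochberg adjustment over all genes. Within a time no test was possible.

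The genes and lists were chosen with earlier results of these data known. Levels are given for the genes of highest and lowest mean difference in each role, those past a log2 difference of 0.32 at both times or past 2-fold at either, and those whose probes disagree. Other named genes were chosen by role or after their values were seen. Of each list, genes past a log2 difference of 0.32 the same way at both times are named. Alternatives changed the centring, normalization, background correction, filter, probe choice, pseudocount, time term and prior.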

Additional observations from a re-analysis of the deposited data

Results flagged for a closer look

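Psmc3ip, a recombination cofactor that carries a proteasome name, had opposite signs of the vancomycin difference at the 2 times. It was 2.22 at ZT2 and -0.08 at ZT14, so the ZT14 difference less the ZT2 difference was -2.30. With 1 array per group this difference between times was not tested. A gap of 2-fold or more with opposite signs was found for 8.3% of all genes. The second probe of the gene gave 2.30 at ZT2 and 0.03 at ZT14. The ZT2 saline array was the low one for both probes. The groups had too few arrays to look for a single array far from the others of its group.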

How the results depend on the processing

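Over 9 alternative settings of the values, the median vancomycin minus saline difference of the proteasome genes ranged from -0.04 to 0.03 at ZT2 and from -0.04 to 0.01 at ZT14. Genes higher at both times numbered 9 to 14 and lower at both times 10 to 16. Genes past a log2 difference of 0.32 numbered 4 to 6 at ZT2 and 1 to 3 at ZT14, with 1 at ZT14 when only probes above background on all 4 arrays were kept, which leaves Psma8 out. The ZT14 minus ZT2 median with vancomycin was -0.15 with centring on the median, -0.14 with quantile normalization, -0.10 with cyclic loess, -0.14 with the authors' table and -0.14 with normexp, and with saline it was -0.13 with centring on the median; the cause was not tested. Centring on the median moved the all-gene median of that comparison to -0.06 with vancomycin and -0.05 with saline. The limma fit called 0 genes in all 12 settings, with a smallest adjusted p of 0.051 with an intensity trend and robust prior and of 0.76 with no time term, and 891 to 2627 genes at an unadjusted p under 0.05. Normexp lowered the share of all genes past a log2 difference of 0.32 to 18.5% at ZT2 and 14.7% at ZT14. Of the other values compared, 515 kept within their spread and 41 moved. Of 520 gene and role values among these, 18 changed sign. None of the 18 was past 0.32 in the values as reported, and 1 was past it under the alternative: Psme4 at ZT14, with -0.06 as reported and 0.50 with the mean over probes. No paired analysis was possible because each group had 1 array, and for the same reason no array could be left out within a group. Low signal limits Psma8, and a probe near background gives a bound there.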
